A study of Mus musculus with 16 samples.

Results

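The effect of blocking cholecystokinin (CCK) receptors on the obese mouse pancreas was examined in 7 RNA-seq libraries, which are 7 of the 16 libraries of the series. They were chosen by their labels alone: all Lep(ob/ob) pancreata of batch RQ15502, namely 4 mice given a CCK receptor antagonist (CCKRi) and 3 mice given control water. All 7 mice were male C57BL6/J animals carrying Lep(ob/ob), which leaves the animals without functional leptin and obese, and all ate chow and were killed at 12 weeks of age. Treatment ran for 6 weeks through the drinking water. Mice 69 and 72 received proglumide at 0.1 mg/mL and mice 74 and 76 received lorglumide at 0.05 mg/mL, while mice 461, 463 and 464 received control water and are called untreated below. The treated group therefore pools 2 drugs, water intake is not given in the sources used here, and no lean mouse received either drug. Values are also given for 2 lean wild-type (WT) mice of this batch and 4 untreated Lep(ob/ob) mice of the other batch, RQ14163. These comparison mice were male, 12 weeks old and on control water. Each library came from whole pancreas of 1 mouse, so that fewer cells of a type and less RNA per cell cannot be told apart.

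CCK is a peptide hormone that acts on acinar cells of the mouse pancreas, which make the digestive enzymes, through the CCK-A receptor (Cckar), a G protein-coupled receptor that raises calcium and drives enzyme secretion, growth and protein synthesis. The CCK-B receptor (Cckbr) also binds gastrin. Proglumide blocks both receptors with low potency, and lorglumide, an analog of proglumide with a dichlorinated benzoyl group and longer alkyl chains on its amide, prefers the CCK-A receptor. Reg genes encode small secreted C-type lectins that acinar cells make in large amounts after injury and inflammation, and several of them lie side by side on mouse chromosome 6.

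Between 9.87 and 15.9 M reads were counted on genes per library, with 9.87 to 12.5 M in the treated and 13.6 to 15.9 M in the untreated mice. Digestive enzymes, the defining transcripts of acinar cells, took 33.5% to 62.6% of all counts, and beta cell markers 0.337% to 1.80%, so that each library held exocrine and endocrine tissue as labelled. The largest axis of variation followed treatment only in part. The first principal component held 59.9% of the variance and set untreated mice 463 and 461 and treated mouse 69 apart from untreated mouse 464 and treated mice 72, 74 and 76. Mice 463 and 69 had the highest adipocyte marker levels, a mean log2 CPM (CPM, the read count of a gene relative to the total of its library after TMM scaling) of 6.92 and 6.34 over 19 adipocyte genes, against 4.08 to 5.41 in the other 5 mice. For most gene lists below the count is therefore also given without mice 463 and 69.

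One gene of the 13509 that passed the filter on low counts fell at an adjusted p under 0.05 in edgeR's quasi-likelihood test, which is 0.0074% of genes, and no gene rose. This gene was Reg3a. At an unadjusted p under 0.05 there were 921 genes higher (6.82%) and 758 genes lower (5.61%) in the treated mice, and in 702 genes (5.2%) all 4 treated mice lay above all 3 untreated mice, with 451 genes (3.34%) the other way round. The adjusted count depended on the method and on single mice. DESeq2 called 36 genes, the fit with the adipocyte score as covariate 22 (0.163%), the fit without untreated mouse 464 called 381, and the fit without mice 463 and 69 called 14 (0.104%), and Reg3a was in each of these sets. Because the adjusted p was 0.399 for most of the genes described below, they are given as values and differences and not as calls.

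The share of all genes at an unadjusted p under 0.05 itself moved between fits, and each list count below is to be read against the share of its own fit. Without untreated mouse 461 it was 2.12% higher and 2.52% lower, and without untreated mouse 463 it was 3.16% higher and 2.55% lower. Leaving out untreated mouse 464 raised it to 15.4% higher and 12.0% lower, and leaving out treated mouse 69 gave 9.2% higher and 12.4% lower. It was 3.58% higher and 2.27% lower without treated mouse 72, 2.69% and 2.08% without treated mouse 74, and 6.9% and 5.12% without treated mouse 76. With mice 463 and 69 both left out, 6.29% of genes were higher and 7.74% lower. The adipocyte score as covariate gave 9.19% higher and 8.45% lower, and the acinar enzyme score as covariate 13.0% higher and 17.4% lower. A list count that falls without mouse 461, 463, 72 or 74, or rises without mouse 464 or 69, thus moves in the same direction as the count over all genes.

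Reg3a was at 206, 119.6 and 243 CPM in untreated mice 461, 463 and 464, and at 6.88, 3.97, 7.32 and 8.52 CPM in treated mice 69, 72, 74 and 76. Every treated mouse lay far below every untreated mouse, a 28.5-fold difference (log2 fold change -4.83, SE 0.35, adjusted p 0.0024). It is encoded at chr6:78380709-78383827 on the plus strand (GRCm38). The log2 fold change stayed between -5.20 and -4.60 in 23 other fits and was called in 22 of them, the exception being proglumide alone (adjusted p 0.412). In the lean WT mice of the same batch Reg3a was at 10.1 and 48.1 CPM, above all 4 treated obese mice, and in 4 untreated Lep(ob/ob) mice of the other batch it ranged from 64.2 to 491 CPM.

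Reg2 was the more abundant transcript, at 4242, 5437 and 11734 CPM in the untreated and 601, 177, 263 and 324 CPM in the treated mice. These groups did not overlap either, and the fitted difference was 20.9-fold (log2 fold change -4.39, SE 0.60, adjusted p 0.174). Both WT mice of the batch, at 492 and 1255 CPM, were nearer to the treated than to the untreated obese mice. Without mice 463 and 69 the log2 fold change of Reg2 was -4.98 with an adjusted p of 0.0011.

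Reg3d was at 644, 301 and 805 CPM untreated and at 104, 152.9, 157 and 216 CPM treated, without overlap (log2 fold change -1.89, SE 0.38, adjusted p 0.399). Here the treated obese mice were also below the lean mice, which were at 443 and 425 CPM. For Reg3b the untreated mice spread from 272 CPM in mouse 463 to 2368 CPM in mouse 464, and the treated mice were at 192, 42.3, 57.9 and 152.5 CPM (log2 fold change -3.32, SE 0.78, adjusted p 0.399). With single mice left out the log2 fold change of Reg3b ranged from -3.78 to -2.11. The Reg3b level of the WT mice, 688 and 2137 CPM, lay within the untreated range.

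Reg3g overlapped between the groups, with 105.1, 19.6 and 234 CPM untreated against 23.3, 12.9, 7.06 and 55.2 CPM treated (log2 fold change -2.28, SE 0.82). Reg1 was the family member that did not follow the others. Its level was 21934, 9173 and 28131 CPM untreated and 8958, 16532, 23022 and 16272 CPM treated (log2 fold change -0.29, SE 0.61, adjusted p 0.832), and its sign turned to 0.18 with an acinar enzyme score as covariate and to 0.06 without untreated mouse 464. Reg4 had at most 1 read in any of the 7 mice and was not tested. Over the family, 5 of 6 tested members were lower at an unadjusted p under 0.05 (758 of 13509 genes, 5.61%, were lower in this sense), with a median log2 fold change of -2.80 against -0.0044 over all genes. The same 5 of 6 count was obtained without mice 463 and 69. It was 4 of 6 without mouse 464 (median -1.85), without mouse 72 (median -2.55) and with the acinar enzyme score as covariate (median -2.29). Reg transcripts are similar to one another, and how reads that match several of them were counted is not given in the sources used here, so the split between members is less certain than their sum. The summed CPM of the 6 members overlapped between groups. It was 27824, 15322 and 43515 untreated and 9886, 16921, 23515 and 17029 treated, with Reg1 as its largest part in every mouse.

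The start regions of the 4 Reg genes that did not overlap between groups, and of Itih4, described next, are shown because these transcripts differed together. RefSeq windows on GRCm38.p6 were used, from 250 bases before to 50 bases after the annotated start, each read 5′ to 3′ on the strand of the gene. Capitals mark 2 motifs looked for on both strands, TTCNNNGAA, a motif known for STAT factors, and TTGCNNAA, a motif known for C/EBP factors, which did not overlap each other in these windows.
Reg3a, chr6:78380459-78380758, plus strand: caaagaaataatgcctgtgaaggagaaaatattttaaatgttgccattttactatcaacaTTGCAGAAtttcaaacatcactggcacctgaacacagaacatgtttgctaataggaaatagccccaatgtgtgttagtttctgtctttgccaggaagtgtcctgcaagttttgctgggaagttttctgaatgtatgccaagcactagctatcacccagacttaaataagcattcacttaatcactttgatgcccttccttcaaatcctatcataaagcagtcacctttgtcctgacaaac
Reg2, chr6:78404905-78405204, plus strand: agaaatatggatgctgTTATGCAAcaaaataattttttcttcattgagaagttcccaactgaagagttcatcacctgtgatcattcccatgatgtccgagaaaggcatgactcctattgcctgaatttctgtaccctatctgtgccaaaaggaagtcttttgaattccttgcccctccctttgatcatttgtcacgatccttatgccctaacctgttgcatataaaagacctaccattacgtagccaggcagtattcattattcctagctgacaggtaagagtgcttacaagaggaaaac
Reg3d, chr6:78378816-78379115, minus strand: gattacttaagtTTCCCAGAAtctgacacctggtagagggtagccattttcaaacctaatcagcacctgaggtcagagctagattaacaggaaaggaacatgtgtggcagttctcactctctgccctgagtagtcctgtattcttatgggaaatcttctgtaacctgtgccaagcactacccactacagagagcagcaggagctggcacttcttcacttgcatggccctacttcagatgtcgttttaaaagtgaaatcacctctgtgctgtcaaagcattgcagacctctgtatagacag
Reg3b, chr6:78370635-78370934, plus strand: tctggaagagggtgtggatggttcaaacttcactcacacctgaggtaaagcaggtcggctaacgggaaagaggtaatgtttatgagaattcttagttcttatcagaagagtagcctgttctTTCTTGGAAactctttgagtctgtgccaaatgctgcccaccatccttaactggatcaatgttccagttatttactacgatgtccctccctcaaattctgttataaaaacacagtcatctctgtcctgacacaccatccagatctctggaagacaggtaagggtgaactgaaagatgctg
Itih4, chr14:30886226-30886525, plus strand: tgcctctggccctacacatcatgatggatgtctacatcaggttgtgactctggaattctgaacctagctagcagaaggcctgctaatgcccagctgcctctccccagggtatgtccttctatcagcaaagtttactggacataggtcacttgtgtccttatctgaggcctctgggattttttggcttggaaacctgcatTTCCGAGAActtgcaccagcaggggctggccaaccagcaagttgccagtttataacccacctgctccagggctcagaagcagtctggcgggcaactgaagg
TTCNNNGAA occurred in the windows of Reg3d, Reg3b and Itih4, with its first base 238 bases before the start in Reg3d and 51 bases before it in Itih4, and in 8.3% of all 32851 promoter windows. TTGCNNAA occurred in the windows of Reg3a and Reg2, 190 and 234 bases before the start, and in 10.8% of all windows. The windows of Reg3g and Reg1 were searched as well and held neither motif. That of Saa3 held TTGCNNAA 99 bases before the start. A match describes the letters only, and no binding was measured. The RefSeq starts of Reg2 and Reg3b used here differ from the start of the gene in the GENCODE annotation.

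Itih4, an inter-alpha-trypsin inhibitor heavy chain that the liver secretes into plasma in the acute phase, was at 344, 145 and 211 CPM in the untreated and at 40.4, 43.3, 44.3 and 46.8 CPM in the treated mice. The 4 treated values were close to one another and all below the untreated ones, a 5.34-fold difference (log2 fold change -2.42, SE 0.29, adjusted p 0.099), and the lean WT mice were lower again, at 18.9 and 14.8 CPM. Itih4 passed the threshold without mice 463 and 69 (log2 fold change -2.65, adjusted p 0.0011) and in 11 of the 23 other fits. Saa3, a serum amyloid A protein made outside the liver, was at 11.2, 11.7 and 9.42 CPM untreated and at 3.66, 2.85, 0.603 and 1.72 CPM treated (log2 fold change -2.26, SE 0.45, adjusted p 0.399). The untreated obese mice of the other batch had 0.509 to 4.23 CPM of Saa3, which overlaps the treated mice of this batch.

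All 13 tested acute phase and plasma protein genes had a negative log2 fold change, with a median of -1.11, and 6 of 13 were lower at an unadjusted p under 0.05, against 5.61% of all genes. Besides Itih4 and Saa3 these were C3, the central complement protein, the neutrophil-associated lipocalin Lcn2, Lrg1 and Itih2. Lrg1, a secreted leucine-rich glycoprotein, was at 23.2, 37.6 and 17.1 CPM untreated and at 22.2, 5.17, 5.51 and 6.32 CPM treated, so that mouse 69 alone among the treated mice lay within the untreated range. The count was 11 of 13 without mice 463 and 69 and also without mouse 69 alone, 3 of 13 without mouse 461 or mouse 76, and 2 of 13 without mouse 72 or mouse 74. Macrophage and adipocyte markers, described below, were also higher in mice 461, 463 and 69 than in the rest, and their part in this list was not tested except by the covariate fit: with the adipocyte score as covariate 7 of 13 were lower, at a median of -0.54.

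**Figure D1:**
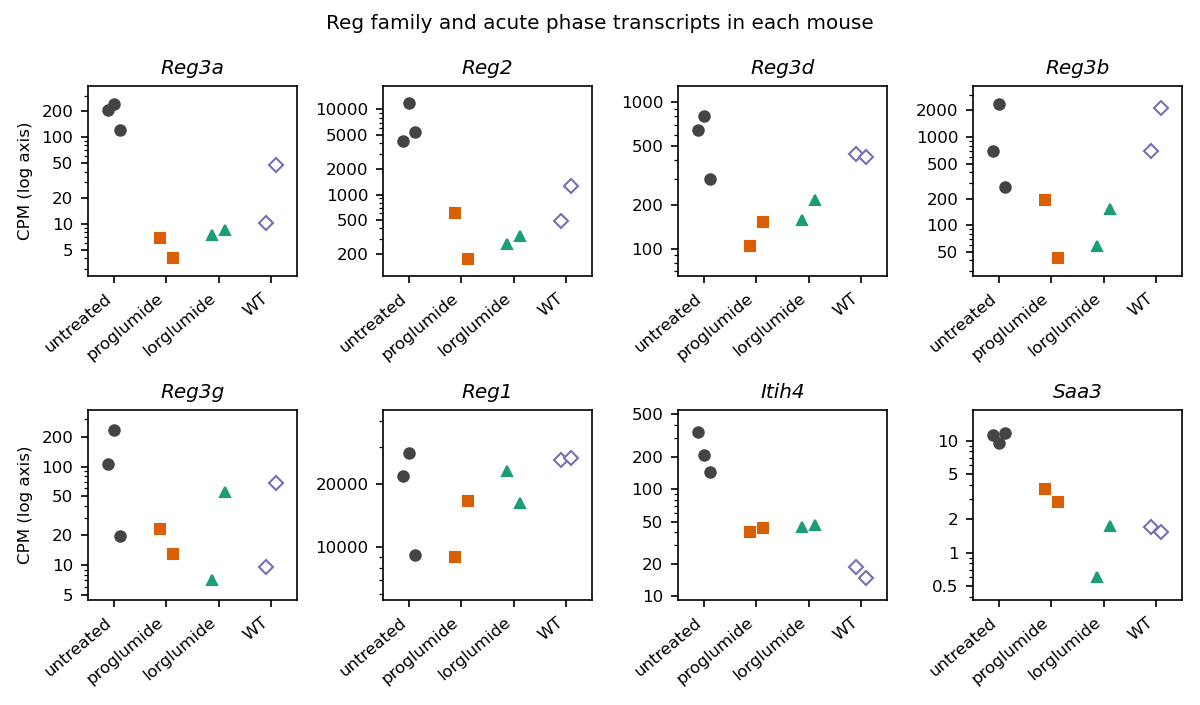
Each panel plots 1 transcript in CPM on a log axis, with 1 symbol per mouse for untreated, proglumide-treated and lorglumide-treated Lep(ob/ob) mice and for the 2 WT mice of the batch. For Reg3a the treated mice sit between 3.97 and 8.52 CPM and the untreated mice between 119.6 and 243 CPM, whereas the symbols of Reg1 overlap.

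The 12 genes of smallest unadjusted p that were lower without overlap, at a mean log2 CPM of at least 1, were 4 Reg genes, Itih4, Saa3, Tmc5, B4galt1, Pcsk6, Litaf, Fcrls and Lrrc17. Tmc5, a member of the transmembrane channel-like family, was at 8.04, 6.97 and 28.8 CPM untreated and at 2.51, 1.12, 3.79 and 1.91 CPM treated (log2 fold change -2.64, SE 0.56). Leaving out single mice gave a log2 fold change of Tmc5 between -2.99 and -1.68. B4galt1, a galactosyltransferase of the Golgi, was at 44.8, 52.2 and 48.8 CPM untreated and at 33.6, 25.8, 24.4 and 25.6 CPM treated (log2 fold change -0.83, SE 0.18), with the WT mice at 33.4 and 25.7 CPM. Pcsk6, a proprotein convertase, was between 20.7 and 30.9 CPM untreated and between 12.3 and 15.6 CPM treated. Litaf, a protein of late endosomes, was between 30.3 and 41.7 CPM untreated and between 15.6 and 22.5 CPM treated. Fcrls, an Fc receptor-like gene of tissue macrophages, and Lrrc17 stayed below 10 CPM in every mouse. Of these 12 lower genes, both WT mice of the batch were on the treated side of the untreated range for 5 and neither was for 4. For 8 of them the 4 treated mice also lay outside the range of all 7 untreated Lep(ob/ob) mice of both batches. The genes were chosen for no overlap with the untreated mice of this batch, which are among these 7, so the choice partly fixed this count. No share over all genes is given beside it, and the CPM were not adjusted for batch.

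Dmbt1, a mucin-like scavenger protein of the zymogen granule, was at 22467, 8998 and 13092 CPM untreated and at 4102, 4347, 5979 and 6246 CPM treated, without overlap (log2 fold change -1.52, SE 0.50, adjusted p 0.399). It was among the 36 genes called by DESeq2 (adjusted p 0.0079). Muc1, a membrane mucin of ducts and acinar cells, was at 217, 92.9 and 139.6 CPM untreated and at 50.1, 74.7, 71.5 and 73.9 CPM treated, again without overlap (log2 fold change -1.15, SE 0.30).

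Cacnb2, a regulatory subunit of voltage-gated calcium channels, had the smallest p among the higher genes. Its level was 3.60, 3.43 and 3.26 CPM in the untreated and 7.00, 9.66, 10.7 and 8.61 CPM in the treated mice, a 2.61-fold difference (log2 fold change 1.39, SE 0.23, adjusted p 0.399). Both WT mice, at 3.63 and 5.05 CPM, lay below all treated mice. Dync2h1, the heavy chain of the dynein that moves cargo back along cilia, was at 13.8, 12.0 and 17.8 CPM untreated and at 37.98, 35.3, 45.8 and 26.6 CPM treated (log2 fold change 1.33, SE 0.24). Rhobtb1 was at 15.8, 17.5 and 16.2 CPM untreated and at 27.6, 27.9, 30.0 and 26.6 CPM treated, and the lean mice were at 13.4 and 15.2 CPM (log2 fold change 0.76, SE 0.15). In these 3 genes and in Fam120c the treated mice stood above the untreated and the lean mice of the batch alike.

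A second set of higher genes had the levels of lean mice. Kcnq1ot1, a long noncoding RNA of an imprinted region that stays in the nucleus, was at 10.9, 13.1 and 20.5 CPM untreated and at 86.0, 55.8, 97.1 and 38.8 CPM treated, a 4.68-fold difference (log2 fold change 2.23, SE 0.37, adjusted p 0.399). The WT mice were at 41.7 and 68.8 CPM, within the treated range, and the untreated obese mice of the other batch at 8.79 to 20.2 CPM. Kcnq1ot1 is transcribed antisense within Kcnq1, and since the strand setting of the counting is not given in the sources used here, reads of the pair may not be told apart. Kcnq1 itself, a potassium channel, was lower in the treated mice, at 13.8 to 16.7 CPM against 39.4, 16.8 and 24.7 CPM. Zfp950, a zinc finger gene, was at 19.3, 25.4 and 37.9 CPM untreated, 68.3, 84.6, 116 and 63.7 CPM treated and 64.5 and 88.9 CPM in the WT mice. Bbs12, a chaperonin-like protein of the Bardet-Biedl syndrome complex of cilia, and the integrin subunit Itga10 were below 7 CPM in every mouse and had at least 1 WT mouse within the treated range. The rule for higher genes also gave Chd5, a chromatin remodeller, at 2.22 to 3.80 CPM untreated and 5.40 to 8.61 CPM treated, and Smarca1, another remodeller, at 2.51 to 5.16 CPM untreated and 6.96 to 12.7 CPM treated. It gave 6820431F20Rik and 6330403K07Rik as well, which stayed below 8 CPM in every mouse. Of these 12 higher genes, both WT mice lay above the untreated range for 7, and neither did for Rhobtb1, Chd5 and 6330403K07Rik.

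**Figure D2:**
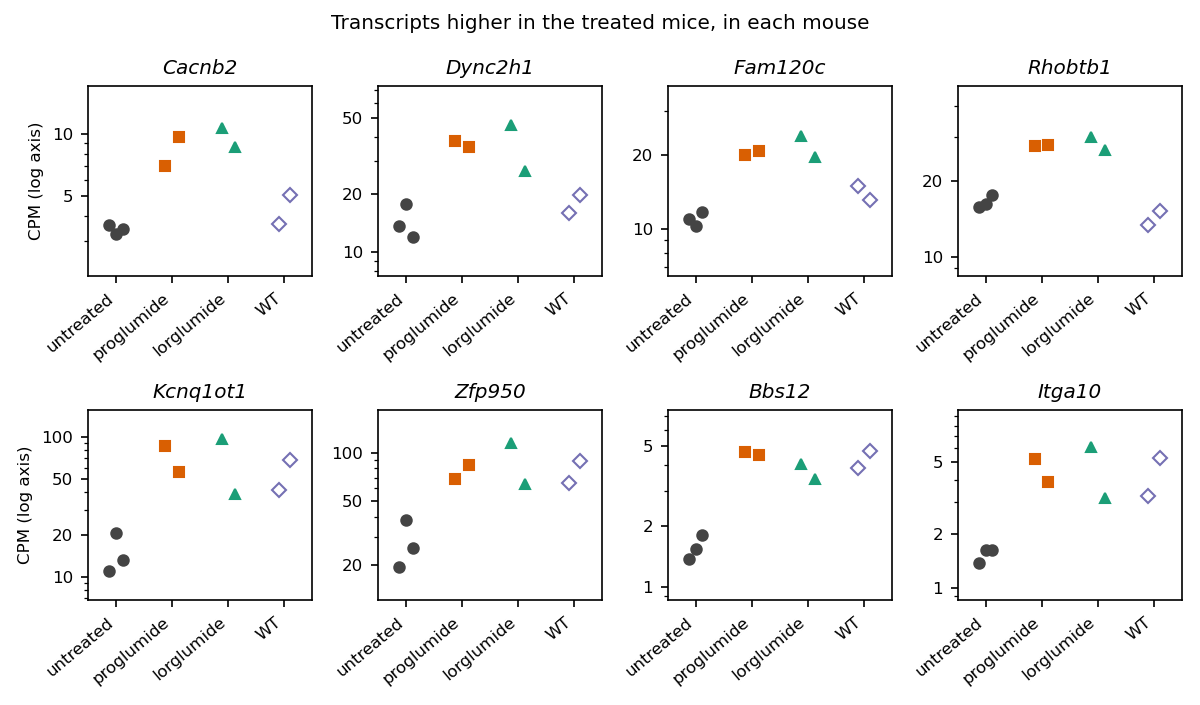
Levels in CPM on a log axis of 8 transcripts that were higher in the treated mice, 1 symbol per mouse. In the upper row the WT mice lie below the treated mice, as for Cacnb2 at 3.63 and 5.05 CPM, and in the lower row at least 1 WT mouse lies among them, as for Kcnq1ot1 at 41.7 and 68.8 CPM.

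Nuclear noncoding RNAs and zinc finger genes were examined together after the values of Kcnq1ot1 and Zfp950 had been seen, so their counts are descriptions of lists chosen afterwards. Of 8 nuclear long noncoding RNAs, 5 were higher at an unadjusted p under 0.05, at a median log2 fold change of 1.16. Malat1, a nuclear speckle RNA, was at 385, 620.3 and 950.2 CPM untreated and at 3932, 1642, 1365 and 699 CPM treated, with mouse 76 inside the untreated range. Meg3, an imprinted RNA, was at 36.4, 64.2 and 169 CPM untreated and at 143, 205, 309 and 163 CPM treated, which overlapped. The count of this list was 4 of 8 without mice 463 and 69, 1 of 8 without untreated mouse 461 or 463, 2 of 8 without treated mouse 72 or 74, and 3 of 8 without treated mouse 76. Of the tested genes with a numbered Zfp symbol, 84 were higher (27.3%) and 2 lower at an unadjusted p under 0.05, against 6.82% and 5.61% of all genes. The median was 0.40, and the mean level of these genes was 2.33 to 2.71 log2 CPM in the untreated and 2.78 to 2.98 in the treated mice, without overlap. Without mice 463 and 69 there were 64 of 306 higher and 4 lower. The number at this p was 31 without untreated mouse 461, 48 without 463 and 131 without 464 (where 15.4% of all genes were higher and 12.0% lower), and it was 56 without treated mouse 72 and 41 without 74. Untreated mouse 464 had the highest level of both lists among the untreated mice, and mean library depth was lower in the treated mice, whose part in these lists was not tested.

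Cck, the hormone itself, was nearly absent from untreated mice of this batch, with 2, 0 and 0 reads in mice 461, 463 and 464 and 7, 18, 8 and 18 reads in treated mice 69, 72, 74 and 76. All treated mice were above all untreated mice, and over the summed reads, 51 against 2, the ratio of CPM was 19.4, with a 95% exact interval of 5.11 to 165 that covers counting error only. The WT mice of the batch had 0 reads each. The 4 untreated obese mice of the other batch, with larger libraries, had 10 to 33 reads. This was 0.667 to 1.79 CPM, which overlaps the 0.45 to 1.72 CPM of the treated mice. In an exact two-sided permutation test over the 7 mice the difference in Cck CPM had p = 0.0571 (Benjamini-Hochberg adjusted p 0.143 over the 5 single measures tested). The test doubled the smaller tail, and with 35 arrangements it could give no smaller p. In obese mice Cck RNA is known from beta cells, and beta cell markers were described beside it.

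Beta cell markers differed more within the groups than between them. Ins2, an insulin gene, was at 2191, 1754 and 4072 CPM untreated and at 742, 3347, 4297 and 9193 CPM treated (log2 fold change 0.72, SE 0.74). The list level was 5.62, 5.25 and 6.06 mean log2 CPM untreated and 4.28, 5.86, 6.42 and 7.24 treated, so that treated mice were both lowest (mouse 69) and highest (mouse 76). None of 17 beta cell genes reached an unadjusted p under 0.05 in edgeR's test, at a median log2 fold change of 0.60, and 16 of 17 had a positive sign. Without mice 463 and 69 there were 6 of 17 higher (6.29% of all genes), without mouse 69 alone 8 of 17 (9.2%), and without untreated mouse 464 there were 2 (15.4%). The median was 0.07 without mouse 76 and turned to -0.03 with the adipocyte score as covariate, a fit in which the log2 fold change of Ins2 was -0.29. For proglumide alone that of Ins2 was -0.38. Cck was at 0.45, 1.35, 0.689 and 1.72 CPM in treated mice 69, 72, 74 and 76. Among the treated mice, mouse 69 was lowest and mouse 76 highest for both Cck and Ins2, but mouse 72 had more Cck and less Ins2 than mouse 74. Untreated mouse 464 had 0 reads of Cck at 4072 CPM of Ins2. Of the other hormones, Gcg, Sst and Ppy did not reach that p. Their list of 8 other endocrine genes had 1 higher and 1 lower, 6 higher and 2 lower without mouse 69 (9.2% and 12.4% of all genes), 5 higher and 1 lower without mice 463 and 69, and none at that p without any 1 of mice 463, 72 and 74, where fewer genes reached that p over all.

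The receptor did not show a difference beyond its spread. Cckar was at 509, 199.7 and 299 CPM untreated and at 183, 259.8, 244 and 368 CPM treated (log2 fold change -0.35, SE 0.36, adjusted p 0.642), and its sign turned to 0.08 without untreated mouse 461 and to 0.02 with the acinar enzyme score as covariate. Cckbr had at most 2 reads in each of the 7 mice, which is too few to test. Downstream of the receptor, 1 of 28 genes of acinar CCK signalling (G proteins, phospholipase C, inositol trisphosphate receptors, calcineurin, mTOR and ERK components) was lower at an unadjusted p under 0.05 and none was higher, which is below the 5.61% and 6.82% of all genes, with a median log2 fold change of -0.15. The count of lower genes was also 1 without mice 463 and 69, 2 without mouse 463 and 3 without mouse 464 or mouse 76. The single gene was Orai1, the pore of store-operated calcium entry, at 3.28, 4.25 and 2.90 CPM untreated and 1.93, 1.27, 1.29 and 1.05 CPM treated (log2 fold change -1.32, SE 0.32, adjusted p 0.399). Among the 6 tested receptors for other secretagogues, such as the muscarinic Chrm3, none reached that p in edgeR's test. There was 1 lower without mice 463 and 69, without mouse 463 alone and with the adipocyte score as covariate. There was 1 higher without mouse 69 or mouse 74, with the acinar enzyme score as covariate and with upper quartile scaling. Without mouse 464 there were 1 higher and 1 lower.

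Immediate early genes, which cells switch on within minutes of a signal, tended downward, with 5 of 17 lower (29.4%, against 5.61% of all genes), none higher and a median log2 fold change of -0.60. Jund was at 43.0, 32.9 and 28.2 CPM untreated and at 17.9, 17.2, 18.5 and 23.3 CPM treated, and Jun at 17.2, 24.2 and 22.2 CPM untreated and at 14.8, 14.2, 15.1 and 12.0 CPM treated, neither with overlap. Fos was highest in untreated mouse 463 at 6.21 CPM, and its other values, 0.824 to 2.33 CPM, overlapped between groups. Without mice 463 and 69 the count was 3 of 16, without mouse 463 alone it was 2 of 17 at a median of -0.26, without mouse 464 it was 10 of 17 (12.0% of all genes), and without mouse 69 it was 9 of 16 (12.4%).

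Of 27 digestive enzyme genes, 2 were higher and 1 lower at an unadjusted p under 0.05 (6.82% and 5.61% of all genes), at a median log2 fold change of -0.58, and 21 of 27 had a negative sign. The enzyme counts depended on the fit: with the adipocyte score as covariate 14 were lower and 2 higher, at a median of -0.96, against 8.45% and 9.19% of all genes. There were 3 lower and 1 higher without mice 463 and 69. Without mouse 463 there were 3 lower, without mouse 76 there were 4 lower, and without mouse 461 or mouse 72 none reached that p in edgeR's test. Ctrc, chymotrypsin C, was at 181, 124 and 291 CPM untreated and at 273, 414, 354.7 and 308.3 CPM treated, and Prss1, a trypsinogen, at 7.62, 19.2 and 54.0 CPM untreated and at 80.2, 131, 40.0 and 62.5 CPM treated, both with overlap. Trypsinogen genes are near copies of one another, and the split of reads among them is uncertain. Pla2g1b, the secreted pancreatic phospholipase, was at 1210.5, 524 and 742 CPM untreated and 205, 374, 314 and 712 CPM treated. Of the acinar transcription factors, Ptf1a, Rbpjl and Bhlha15 did not reach that p, and Creb3l1, a secretory pathway factor, was at 46.7, 24.5 and 27.8 CPM untreated and 19.9 to 22.5 CPM treated. Of 15 zymogen granule genes 1 was lower and none higher. There were 5 lower with the adipocyte covariate, 4 higher and 1 lower without mouse 464, 4 higher and 2 lower with the acinar enzyme covariate, 2 lower without mouse 463 or mouse 76, and none at that p without mouse 461. No gene of 23 in the endoplasmic reticulum folding list reached that p in edgeR's test, at a median of -0.14, but 6 were lower with the adipocyte covariate and 2 without mouse 76. With the acinar enzyme covariate 2 of these genes were higher and 0 lower, at a median of 0.12. Without mouse 464 there were 2 higher and 1 lower, and without mouse 69 there was 1 higher. Duct and metaplasia genes went both ways, with 3 of 20 lower (Krt19, Muc1 and Clu) and 3 higher, among them Cftr and Onecut2. This list had 3 lower and 2 higher without mice 463 and 69, 1 lower and 2 higher without any 1 of mice 461, 72 and 74, 3 lower and 5 higher without mouse 464, and 5 lower and 9 higher with the acinar enzyme score as covariate. Onecut2, a homeobox factor, stayed low, at 0.327 to 0.724 CPM untreated and 1.35 to 3.44 CPM treated.

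Macrophage transcripts were lower in most treated mice. Of 19 macrophage markers 13 were lower at an unadjusted p under 0.05 (68.4%, against 5.61% of all genes), all 19 had a negative sign, and the median log2 fold change was -1.49, but none was free of overlap. Adgre1, which encodes the F4/80 antigen, was at 20.4, 56.3 and 7.97 CPM untreated and at 15.2, 7.26, 5.68 and 6.32 CPM treated. Cd68, a lysosomal protein of macrophages, was at 24.7, 64.7 and 8.15 CPM untreated and at 17.9, 6.59, 4.91 and 6.99 CPM treated. In both, mouse 69 was above untreated mouse 464, and the remaining treated mice were below every untreated mouse. Csf1r, the receptor for the macrophage growth factor CSF1, and the complement components C1qb and C1qc also had mouse 69 above and the other 3 treated mice below untreated mouse 464. The summed CPM of the list was 395 to 1813 untreated and 219 to 663 treated. In the 4 untreated Lep(ob/ob) mice of the other batch it was 171 to 632, which overlaps the treated mice.

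The macrophage count moved with single mice. The count over all genes moved the same way, but only slightly without mouse 76, where 5.12% of all genes were lower against 5.61% with all 7 mice. Without untreated mouse 463 none of the 19 markers reached an unadjusted p under 0.05 in edgeR's test (median -0.71, with 2.55% of all genes lower in that fit), without treated mouse 72, 74 or 76 there were 6, 8 or 4, without mouse 69 there were 17 of 18, and without mice 463 and 69 together 16 of 18 at a median of -1.23. With the adipocyte score as covariate 15 of 19 were lower at a median of -0.83, against 8.45% of all genes in that fit. The WT mice of the batch, with 449 and 374 summed CPM, were near untreated mouse 464 and below mice 461 and 463. MHC class II genes, chosen after their values were seen, were lower for 6 of 7 (5.61% of all genes), for 5 of 7 without mice 463 and 69 and for 1 of 7 without untreated mouse 463 alone. Cd74, the invariant chain, was at 143, 262 and 58.9 CPM untreated and 72.4, 44.2, 30.0 and 56.2 CPM treated.

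Stromal transcripts were also lower in most treated mice. Of 18 stellate cell and fibroblast genes 10 were lower at an unadjusted p under 0.05 (5.61% of all genes), none was higher, and the median log2 fold change was -1.08, but none was free of overlap. With the adipocyte score as covariate 10 were lower too, at a median of -0.56. The summed CPM of the list was 1268.5 to 4748 untreated and 952 to 2626 treated. In the untreated Lep(ob/ob) mice of the other batch it was 950 to 3132, which spans the treated mice. Fn1, fibronectin, was at 252, 307 and 35.5 CPM untreated and at 81.1, 24.9, 21.8 and 21.1 CPM treated. Col1a1, the main fibrillar collagen chain, was at 118, 164.3 and 40.0 CPM untreated and at 60.0, 31.1, 25.1 and 23.8 CPM treated. Acta2 and Des, markers of activated and quiescent stellate cells, did not reach that p. Without mice 463 and 69 there were 13 of 18 lower, without mouse 69 alone 16 of 18, and without any 1 of mice 463, 72, 74 and 76 there were 5 of 18. Mesothelial markers, which come from the outer lining of the organ, were lower for 2 of 6, for 4 without mice 463 and 69, for 5 without mouse 69 or mouse 464, for 1 without mouse 74 and for none without any 1 of mice 461, 463, 72 and 76. Lymphocyte markers were lower for 4 of 13 (5.61% of all genes), for 9 of 11 without mice 463 and 69 and for 10 of 11 without mouse 69. Without mouse 464 there were 7 of 13, without mouse 461 there were 2, without any 1 of mice 72, 74 and 76 there was 1, and without mouse 463 there was none. Adipocyte markers reached that p for none of 19 genes in edgeR's test at a median of -0.84, for 9 of 19 without mice 463 and 69, for 15 without mouse 69 alone (12.4% of all genes lower) and for 3 without mouse 464 (12.0%). Without untreated mouse 463 alone none did so and the median turned to 0.11. Endothelial markers did so for none of 15, at a median of -0.26, and for 4 without mouse 464.

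**Figure D3:**
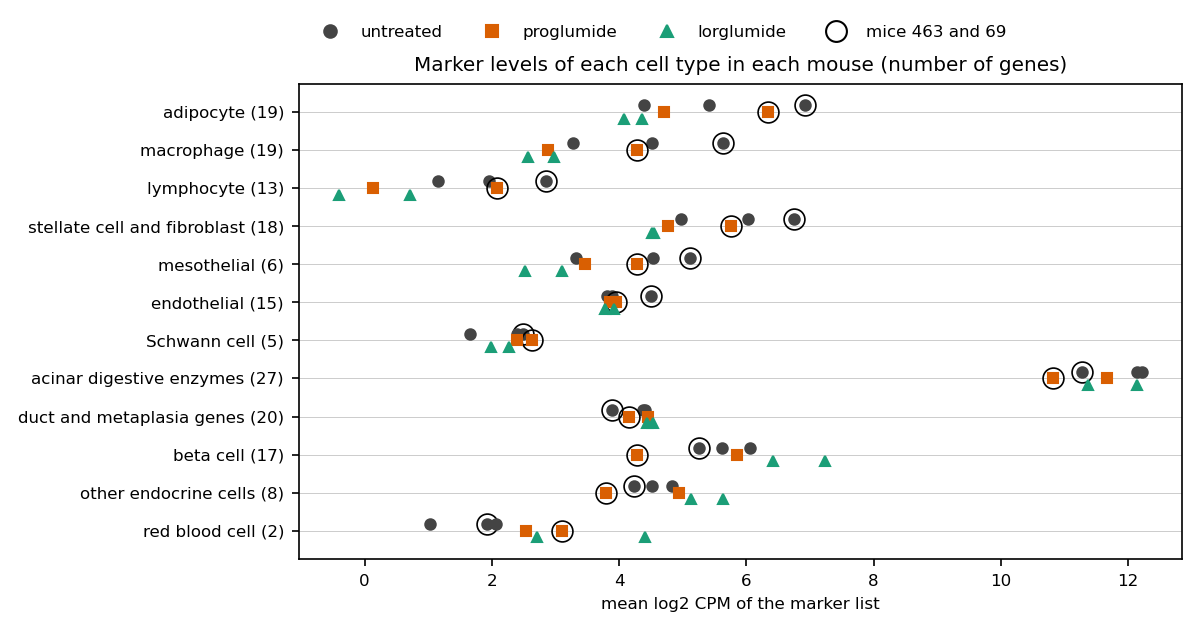
Mean log2 CPM of each marker list is plotted by mouse, with the number of genes in brackets and mice 463 and 69 circled. Adipocyte, macrophage, lymphocyte, fibroblast and mesothelial markers place mice 463 and 69 to the right within their groups, and the 3 other treated mice lie below untreated mouse 464 for macrophage genes.

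Red blood cell transcripts were higher, as far as they were counted. Only Alas2, the first enzyme of heme synthesis in erythroid cells, and Slc4a1, the band 3 anion exchanger, were tested, and both reached an unadjusted p under 0.05 (6.82% of all genes were higher), also without mice 463 and 69. Without untreated mouse 461 neither did, and without mouse 463 or mouse 76 only 1 did. Alas2 was at 8.57, 9.37 and 22.0 CPM untreated and at 24.0, 17.7, 26.4 and 53.3 CPM treated, while the WT mice were at 65.9 and 78.1 CPM. How much blood each piece held was not tested.

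Clock genes differed in both directions. Of 18 core clock genes, 5 were higher and 2 lower at an unadjusted p under 0.05, against 6.82% and 5.61% of all genes. Per2, a repressor of the clock, was at 35.98, 36.2 and 66.6 CPM untreated and at 95.7, 98.3, 106 and 75.02 CPM treated, without overlap (log2 fold change 1.02, SE 0.27), and the WT mice were at 20.9 and 34.9 CPM. Per3, Tef and Ciart were among the others that were higher, and the repressors Nr1d1 and Bhlhe40 were lower. The hour at which each pancreas was taken is not given in the sources used here, and its part in these values was not tested. Without untreated mouse 461, untreated mouse 463 or treated mouse 74, 2 clock genes were higher and 0 lower. There were 2 higher and 1 lower without treated mouse 72. In these 4 fits the count over all genes fell as well. With upper quartile scaling or without treated mouse 76, 5 were higher and 0 lower. There were 3 higher and 1 lower without mice 463 and 69.

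Genes of the amino acid response and tRNA charging were lower for 5 of 30 and higher for 1, against 5.61% and 6.82% of all genes. There were 6 lower without mice 463 and 69, 2 without mouse 461, 3 without any 1 of mice 69, 72 and 74, and 12 with the adipocyte score as covariate. Wars, tryptophanyl-tRNA synthetase, was at 143, 85.4 and 123 CPM untreated and at 52.6, 63.5, 65.2 and 65.9 CPM treated (log2 fold change -0.92, SE 0.22), while Slc7a11, the cystine transporter, was at 11.5, 5.23 and 11.2 CPM untreated and at 18.1, 23.3, 29.3 and 19.6 CPM treated (log2 fold change 1.28, SE 0.31). Neither gene overlapped between groups. Slc3a2, the partner chain of Slc7a11 in the membrane, differed the other way, at 86.9 to 142 CPM untreated and 48.1 to 83.7 CPM treated. The regulator Atf4 did not reach an unadjusted p under 0.05.

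In lipid metabolism, 2 of 14 fatty acid synthesis genes were lower (Fads1 and Srebf1), at a median of -0.61. The level of this list was highest in mice 463 and 69, at 7.17 and 6.79 mean log2 CPM, the mice with the highest adipocyte marker levels. Its count was 10 lower without mouse 69, 4 without mouse 464, 1 without any 1 of mice 72, 74 and 76, none without mouse 461, and 5 lower and 1 higher without mice 463 and 69. The median turned to 0.07 with the adipocyte score as covariate and to 0.15 without mouse 463. Of 19 sterol synthesis genes 2 were lower (among them Dhcr7), with 6 without mouse 464, 4 without mouse 76, 1 without mice 463 and 69, 1 without any 1 of mice 463, 72 and 74, and none without mouse 461. Of 17 fatty acid oxidation genes 1 was higher and none lower, also without mice 463 and 69, while 5 were lower without mouse 464, 2 without mouse 69, 1 without mouse 76 and 9 with the acinar enzyme score as covariate. The higher gene was Ppargc1a, a coactivator of mitochondrial genes, at 4.23, 2.94 and 4.35 CPM untreated and at 10.2, 7.04, 10.1 and 4.98 CPM treated. Nuclear oxidative phosphorylation genes were higher for 10 of 76 and lower for 2, at a median of 0.21, against 6.82% and 5.61% of all genes. None was higher without any 1 of mice 461, 463, 72 and 74, 3 were higher and 9 lower without mouse 76, 33 were higher and 4 lower without mouse 464 (15.4% and 12.0% of all genes), and 5 of 75 were higher and 1 lower without mice 463 and 69. Cytosolic ribosomal protein genes had a median of 0.49, with 72 of 79 positive and 1 at an unadjusted p under 0.05. Their number higher at that p was 53 without untreated mouse 464, where 15.4% of all genes were higher. With the acinar enzyme score as covariate 35 were higher (13.0% of all genes). With the adipocyte score as covariate 15 were higher and 4 lower (9.19% and 8.45% of all genes). Mt2, a metallothionein, was at 110.2, 84.8 and 159 CPM untreated and at 29.5, 57.7, 36.5 and 79.2 CPM treated. Stat3, a transcription factor of leptin and cytokine signalling, was at 50.3, 65.1 and 53.2 CPM untreated and at 49.2, 31.4, 39.4 and 31.6 CPM treated, and its target Socs3 at 4.76 to 7.52 CPM untreated and 2.39 to 5.17 CPM treated. Cell cycle genes reached that p for none of 23 in edgeR's test, with 4 lower without mouse 464 and 3 of 21 without mouse 69. Interferon-stimulated genes were lower for 3 of 19 (5.61% of all genes), for 9 without mouse 464, for 1 without mouse 72 or mouse 74 and for none without mouse 461 or mouse 463. The median was 0.03 without mouse 463. One of 18 was lower and 1 higher without mice 463 and 69.

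**Figure D4:**
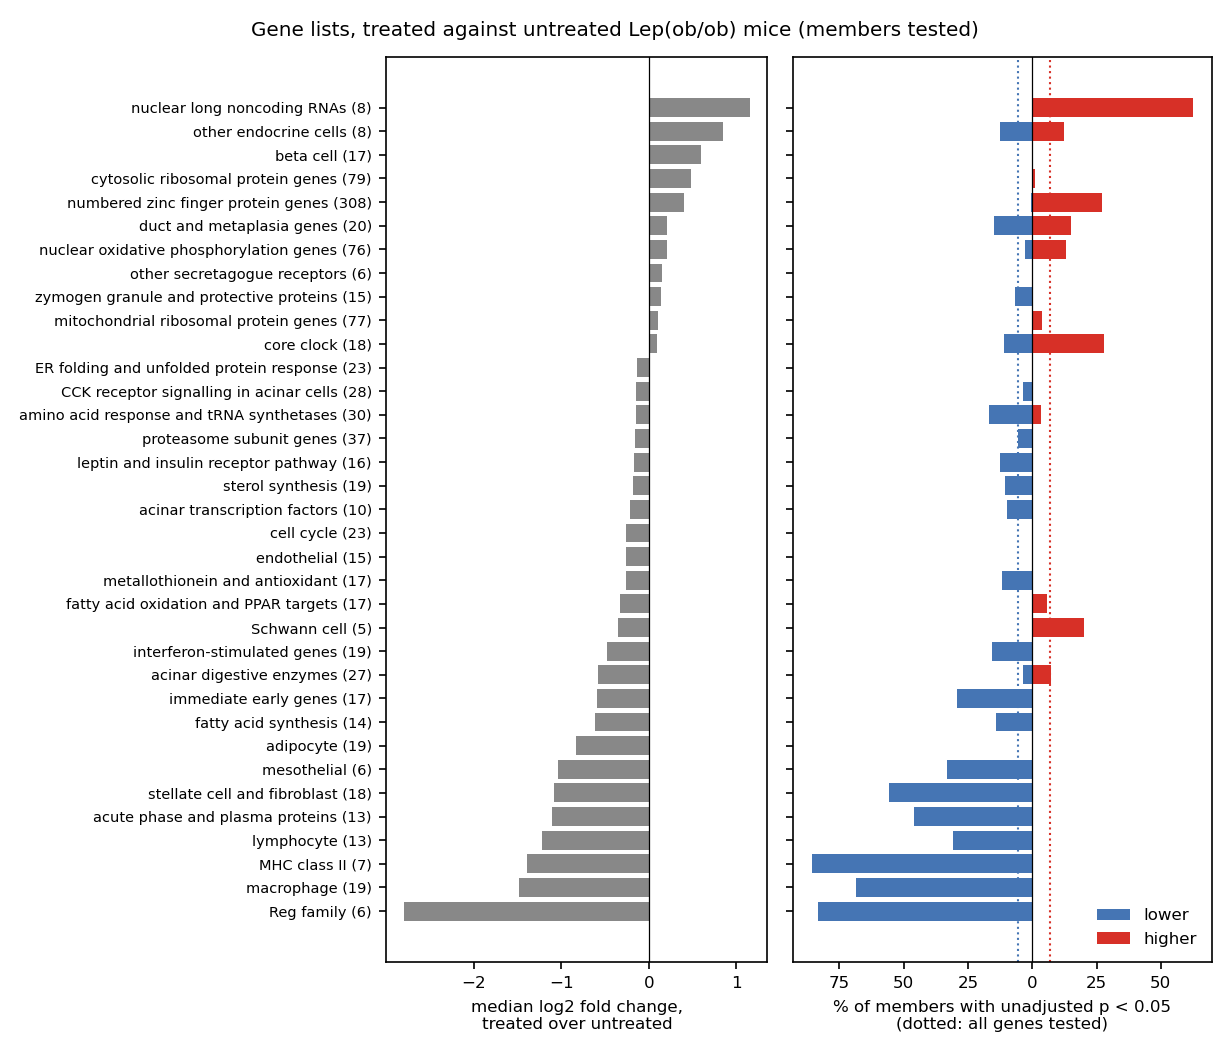
For each gene list the left bars give the median log2 fold change of treated over untreated mice and the right bars the percent of members lower or higher at an unadjusted p under 0.05, with dotted lines at 5.61% lower and 6.82% higher for all genes tested. Reg family, macrophage and MHC class II genes hold the lowest medians, -2.80, -1.49 and -1.39.

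The drugs were given at different concentrations and are set side by side without a test of their difference. Each was fitted against the same 3 untreated mice, with 2 treated mice each, so both columns share their controls, and the direction of the genes shown was fixed by choosing genes without overlap. The log2 fold change of Reg3a was -5.12 (SE 0.52) with proglumide and -4.60 (SE 0.44) with lorglumide. For Reg2 it was -4.20 and -4.62, for Itih4 -2.48 and -2.38, for Cacnb2 1.28 and 1.46, and for Kcnq1ot1 2.26 and 2.18. Saa3 had the widest gap of the 24 genes, -1.72 with proglumide and -3.25 with lorglumide, on levels of 3.66 and 2.85 CPM against 0.603 and 1.72 CPM. For proglumide alone edgeR called no gene of 13873 at an adjusted p under 0.05, with 564 at an unadjusted p under 0.05, and for lorglumide alone it called 1 of 13519, Reg3a. Adipocyte marker levels differed within the proglumide pair, at 6.34 in mouse 69 and 4.71 in mouse 72, while both lorglumide mice were low, at 4.36 and 4.08.

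**Figure D5:**
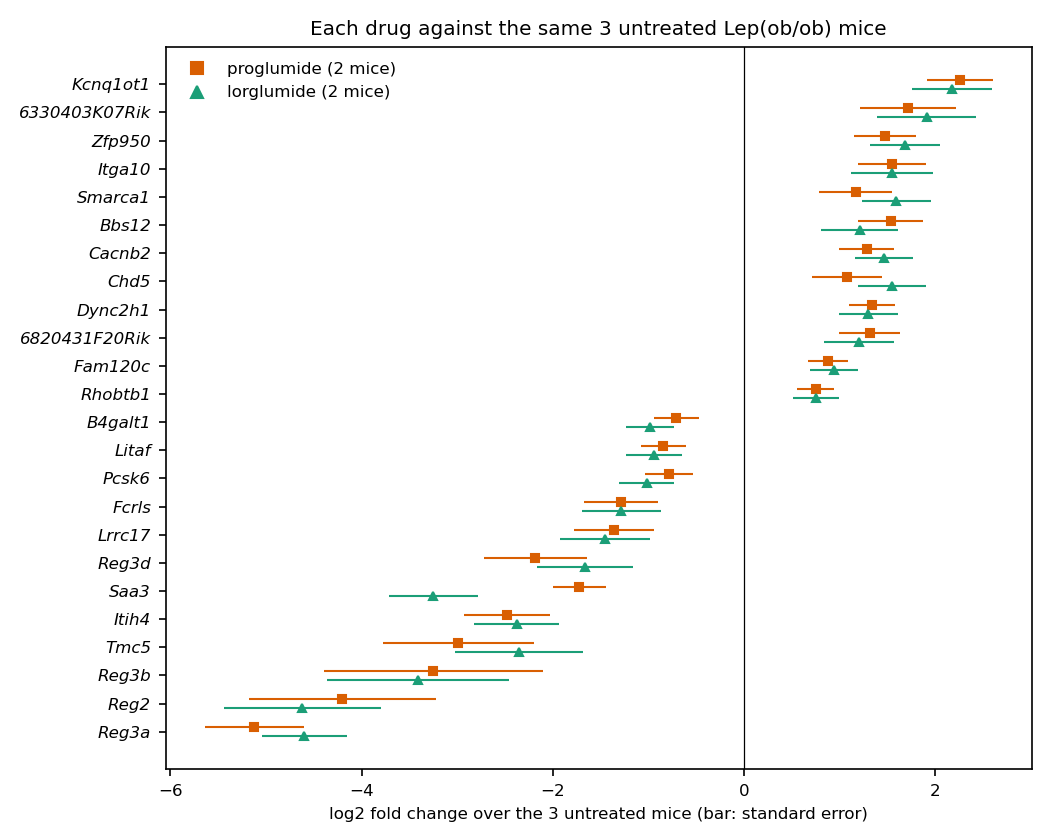
Log2 fold change over the 3 untreated mice with its standard error, for 24 genes without overlap between treated and untreated mice, is plotted for proglumide (2 mice) and lorglumide (2 mice). Reg3a lies at -5.12 and -4.60 and Itih4 at -2.48 and -2.38, and Saa3 has the widest gap.

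Body weight was not lower in the treated mice. Treated mice weighed 54.8 ± 2.22 g (SD, n = 4) and untreated mice 51.3 ± 2.54 g (SD, n = 3), with an exact two-sided permutation p of 0.171. The 50 genes with the most reads took 49.3% to 70.9% of all reads in the treated and 60.3% to 77.1% in the untreated mice, with an exact permutation p of 0.229. Total counts did not overlap between groups. Their exact two-sided permutation p of 0.0571 is the smallest that this test, which doubles the smaller tail, can give.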

How the data were processed

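RNA-seq libraries were made from polyA RNA of snap-frozen whole pancreas with a strand-specific protocol. Per the labels and the methods of the study, the authors trimmed reads with Trim Galore 0.6.7 and cutadapt 3.5, aligned them with STAR 2.7.9 to mm10 and deposited raw counts per gene. The counter, its strand setting and the annotation are not given in the sources used here. The deposited normalized table was not used, and 27 symbols turned into dates were not matched to lists. Here 7 libraries of 1 batch, 1 mouse each, were compared as 4 treated against 3 untreated with edgeR 4.0.16 (R 4.3.3; filterByExpr, TMM, quasi-likelihood test, Benjamini-Hochberg adjustment), the script being tested on simulated data first. CPM were scaled by TMM, log2 CPM used a prior count of 2, and single measures were tested with exact two-sided permutation tests in scipy 1.17.1. Alternatives used DESeq2 1.42.0, limma 3.58.1, other scaling and filters, covariates, all 9 or 16 libraries, each drug alone and each mouse left out. Named genes were those called, the 12 per direction with the smallest p, no overlap and a mean log2 CPM of at least 1, CCK, its receptors and the Reg family, and in each list the first 3 and up to 4 of smallest p. Other list members that are named, and the genes of the nuclear RNA and MHC lists, were chosen after their values were seen. The mice and the gene lists were chosen with earlier results of these data known. Intervals cover counting error only. Some members of the lists are not reported here by name.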

Additional observations from a re-analysis of the deposited data

Results flagged for a closer look

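In 1 of 65 groups of marker scores and measures with 4 mice, a single mouse lay far from the others. The mean level of 17 fatty acid oxidation and PPAR target genes was 4.42 log2 CPM in treated mouse 69 and 3.87 to 3.94 in the other 3 treated mice, so that the gap took 0.875 of the range and passed Dixon's 95% critical value. Chance alone passes this value in about 1 in 20 groups. Mouse 69 also had the highest adipocyte level of the treated mice, and the part of fat in this value was not tested.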

How the results depend on the processing

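The number of genes called at an adjusted p under 0.05, 1 in the comparison as reported, was 36 with DESeq2, 2752 with limma voom and sample quality weights, 2 without the filter on low counts, 2 with all 9 libraries of the batch, 8 with all 16 libraries and batch, 22 with the adipocyte score, 380 with the acinar enzyme score and 6 with the macrophage score as covariate, the last chosen after seeing the data. It was 0 of 13873 for proglumide alone with edgeR (564 at an unadjusted p under 0.05), 14 without mice 463 and 69, 2 at an adjusted p under 0.1, and between 1 and 381 when each mouse was left out, with 381 without untreated mouse 464 and 2 without untreated mouse 463. The cause was not tested. Of 2658 alternative fits of 116 genes, chosen for an unadjusted p under 0.05 or because they are named, 2394 kept the direction and the side of the threshold, 226 newly passed it and 37, in 14 genes, turned the direction. Over all 211 genes of the naming rule, 68 turned in at least 1 fit, against 2 of the 94 at an unadjusted p under 0.05, and 54 turned with the macrophage score as covariate. In that fit the log2 fold change of Gbp2 was 0.042, of Hmox1 0.090, of Acta2 0.69, of Des 0.57, of Chrm3 -0.62, of Gcg -0.43, of Ins2 -0.56, of Ppy -0.21, of Ptf1a -0.19 and of Sst -0.38. With the adipocyte score it was 0.22 for Acta2, 0.17 for Des, -0.34 for Chrm3, -0.29 for Ins2 and -0.011 for Sst. With the acinar enzyme score it was 0.021 for Cckar, 0.18 for Reg1, 0.091 for Atf4 and 0.11 for Bhlha15. Without mice 463 and 69 it was 0.13 for Acta2, 0.057 for Des and -0.0069 for Chrm3. Chrm3 was at -0.011 with limma voom, -0.025 with all 16 libraries and -0.21 for proglumide alone, Des at 0.0058 with all 16 libraries, Ins2 at -0.38 for proglumide alone and Atf4 at 0.0099 for lorglumide alone. With single mice left out, Cckar ranged from -0.62 to 0.082, Reg1 from -0.63 to 0.061, Acta2 from -0.62 to 0.40, Bhlha15 from -0.50 to 0.27, Chrm3 from -0.22 to 0.25, Des from -0.44 to 0.30 and Ptf1a from -0.087 to 0.49. No paired analysis was possible because treated and untreated mice share no replicate number. With 3 and 4 mice, the permutation test of single measures, which doubles the smaller tail, cannot go below p = 0.0571.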
